A study of Rattus norvegicus with 32 samples.

Results

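The genes of the NF-kB pathway and of inflammatory signalling described here in rat C6 glioma cells treated with angiotensin II (Ang II) were the NF-kB subunit genes Nfkb1, Nfkb2 and Rela, the inhibitor genes Nfkbia and Tnfaip3, the inflammasome sensor gene Nlrp3, the chemokine genes Ccl2 and Cxcl1, and the cytokine genes Il6 and Csf1. A probe was taken where its gene name in the scanner files equalled one of these names, which gave 10 probes for 9 of the 10 genes, of 30367 probes and 26583 gene names on the array. Tnfaip3 matched no probe and was not analysed here. C6 is an established astrocytoma-like cell line of rat, and every group consisted of this line grown to confluence in the same serum-supplemented medium. At 3 h and at 6 h, 4 groups of 4 replicates each were hybridised to single-dye Agilent arrays, 32 arrays in all. Control cells received no treatment, Ang II cells received 100 nM Ang II, Ang II+Los cells were first given 10 µM losartan, an antagonist of the AT1 receptor, and then Ang II, and Ang II+PD123319 cells were first given 10 µM PD123319, an antagonist of the AT2 receptor, and then Ang II. A group treated with an antagonist but without Ang II was not among the samples analysed here, so an antagonist could be compared only in cells that also received Ang II.

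NF-kB is a family of dimeric transcription factors that is held in the cytoplasm by IkB proteins. Receptor signals that activate the IkB kinase lead to degradation of IkB, whereupon the dimers enter the nucleus and bind kappa B sites in the promoters of cytokine, chemokine and adhesion genes, among them the genes of their own inhibitors. NLRP3 is a cytoplasmic sensor that assembles with an adaptor and a caspase into the inflammasome, which matures interleukin-1 beta and interleukin-18, and its own gene is transcribed upon NF-kB activation in macrophages. Astrocytes and glioma cells are known sources of CCL2, CXCL1, interleukin-6 and colony stimulating factor 1, which recruit and sustain monocytes, neutrophils and microglia.

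The promoters of the genes were read from the RefSeq table for the GRCr8 build and searched on both strands for the NF-kB kappa B consensus. The table held 8 of the 10 genes, and 6 of these had a match between 250 bases before and 50 bases after the start of the gene, a window in which 5.02% of the 33469 promoters in the table had one. Rela and Nlrp3 had no match in this window, Tnfaip3 had 2 matches, and Ccl2 and Csf1 were looked up by name only. The 5 windows below belong to the genes that had both a match and a probe, since these are the ones whose levels can be read beside the site. They run 5′ to 3′ on the strand of the gene from 120 bases before to 20 bases after its start, with the matched bases in capitals, and lie at chr2:226805443-226805582, minus strand, for Nfkb1, chr1:255108254-255108393, plus strand, for Nfkb2, chr6:78597053-78597192, minus strand, for Nfkbia, chr14:17479302-17479441, minus strand, for Cxcl1, and chr4:5894556-5894695, minus strand, for Il6.
Nfkb1: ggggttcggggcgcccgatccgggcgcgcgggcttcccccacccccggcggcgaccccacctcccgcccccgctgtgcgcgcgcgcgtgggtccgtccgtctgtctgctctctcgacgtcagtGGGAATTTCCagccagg
Nfkb2: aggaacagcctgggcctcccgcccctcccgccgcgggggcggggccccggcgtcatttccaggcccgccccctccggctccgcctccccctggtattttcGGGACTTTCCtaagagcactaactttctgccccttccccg
Nfkbia: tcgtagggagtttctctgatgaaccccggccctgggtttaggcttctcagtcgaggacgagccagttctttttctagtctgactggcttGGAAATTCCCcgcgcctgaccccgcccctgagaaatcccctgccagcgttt
Cxcl1: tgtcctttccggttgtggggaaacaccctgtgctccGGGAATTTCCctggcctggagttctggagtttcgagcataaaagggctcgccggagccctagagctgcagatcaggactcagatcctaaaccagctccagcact
Il6: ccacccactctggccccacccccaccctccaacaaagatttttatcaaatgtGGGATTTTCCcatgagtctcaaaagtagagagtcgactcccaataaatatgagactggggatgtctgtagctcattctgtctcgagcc
The same 10 letters matched in Nfkb1 and in Cxcl1, where they lie downstream of the start of Nfkb1 and upstream of the start of Cxcl1. A match gives the position of these letters and was not tested as a binding site.

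Of the spots on an array, 55.9% to 64.7% were well above background at 3 h and 64.2% to 79.8% at 6 h. The scanner software had been run with a factor of 2.6 for this flag at 3 h and of 13 at 6 h, so detection was not compared between times. Each slide carried 1 array of every group in the same position, so position and treatment cannot be told apart. The label was checked against 8 glial marker genes, of which 5 at 3 h and 6 at 6 h were well above background on all 16 arrays, whereas Slc1a3 was on none and Gfap on 2 of 16 at 6 h and none at 3 h. Of 9 markers of microglia or macrophages, which secrete and respond to the same cytokines, 6 at 3 h and 7 at 6 h were well above background on all 16 arrays, but Ptprc, which defines leukocytes, was on none and P2ry12 on 2 at 6 h. Their summed intensity overlapped between the groups of a time, at 6 h from 1862 to 3033 units in Control and from 1967 to 2866 in Ang II. On all 16 arrays, 2 of 5 neuronal markers were well above background at either time, and 1 of 4 endothelial markers at 3 h and 2 at 6 h.

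All levels below are normalised log2 intensities, and differences are differences of these values within slides. Nfkb1, Nfkb2, Nfkbia, Ccl2, Cxcl1 and Csf1 were well above background on all 32 arrays, as was the brighter of the 2 Rela probes. Il6 was on 4 of 16 arrays at 3 h and 15 of 16 at 6 h, and Nlrp3 on 1 of 16 at 3 h and 10 of 16 at 6 h. A gene was tested at a time if some group had all 4 of its arrays flagged in this way, which left 7 of the genes at 3 h and 9 at 6 h. Nlrp3 passed this filter at 6 h only through the Ang II group, with 2 of 4 arrays in Control, 3 in Ang II+Los and 1 in Ang II+PD123319, so a level above the other groups in Ang II was favoured by the filter itself. The Il6 probe passed through the 3 groups that received Ang II.

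The comparisons are written Ang II x Control, Los x Ang II, PD x Ang II, Los x Control and PD x Control, where Los and PD stand for the Ang II+Los and Ang II+PD123319 groups. A gene was counted as changed at an unadjusted p under 0.05 in limma and a fold above 1.2 or below 0.8. At 3 h, this held for 0 of 7 genes in Ang II x Control, where 11% of all 13630 genes passed, and for 0 in Los x Ang II, where 10.1% passed. It held for 1 gene, Cxcl1, in PD x Ang II with 2.64% of all genes, for 1, Nfkb1, in Los x Control with 20%, and for 0 in PD x Control with 6.1%. At 6 h, 2 of 9 genes, Nlrp3 and Ccl2, passed in Ang II x Control, where 11.5% of all 16446 genes did. Nlrp3 alone passed in Los x Ang II, against 0.9% of all genes, and in PD x Ang II, against 3.79%. Because Nlrp3 was tested only through the Ang II group, its passing in these comparisons and in Ang II x Control was favoured by the filter. It is not read as a result about the genes. No gene passed in Los x Control, against 11.4%, and Ccl2 passed in PD x Control, against 13.5%. None of the genes had a Benjamini-Hochberg adjusted p under 0.05 in any of the 10 comparisons, a limit passed by 0% of all genes in 8 of them and by 1.36% and 1.38% in Los x Control and PD x Control at 6 h. The median log2 fold change of the tested genes lay between -0.13 and 0.14 in the 10 comparisons, beside -0.02 to 0.01 for all genes. Counts of 0 to 2 among 7 or 9 genes do not separate these genes from the background. The comparisons against Control share the Control arrays and those against Ang II share the Ang II arrays.

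**Figure D1:**
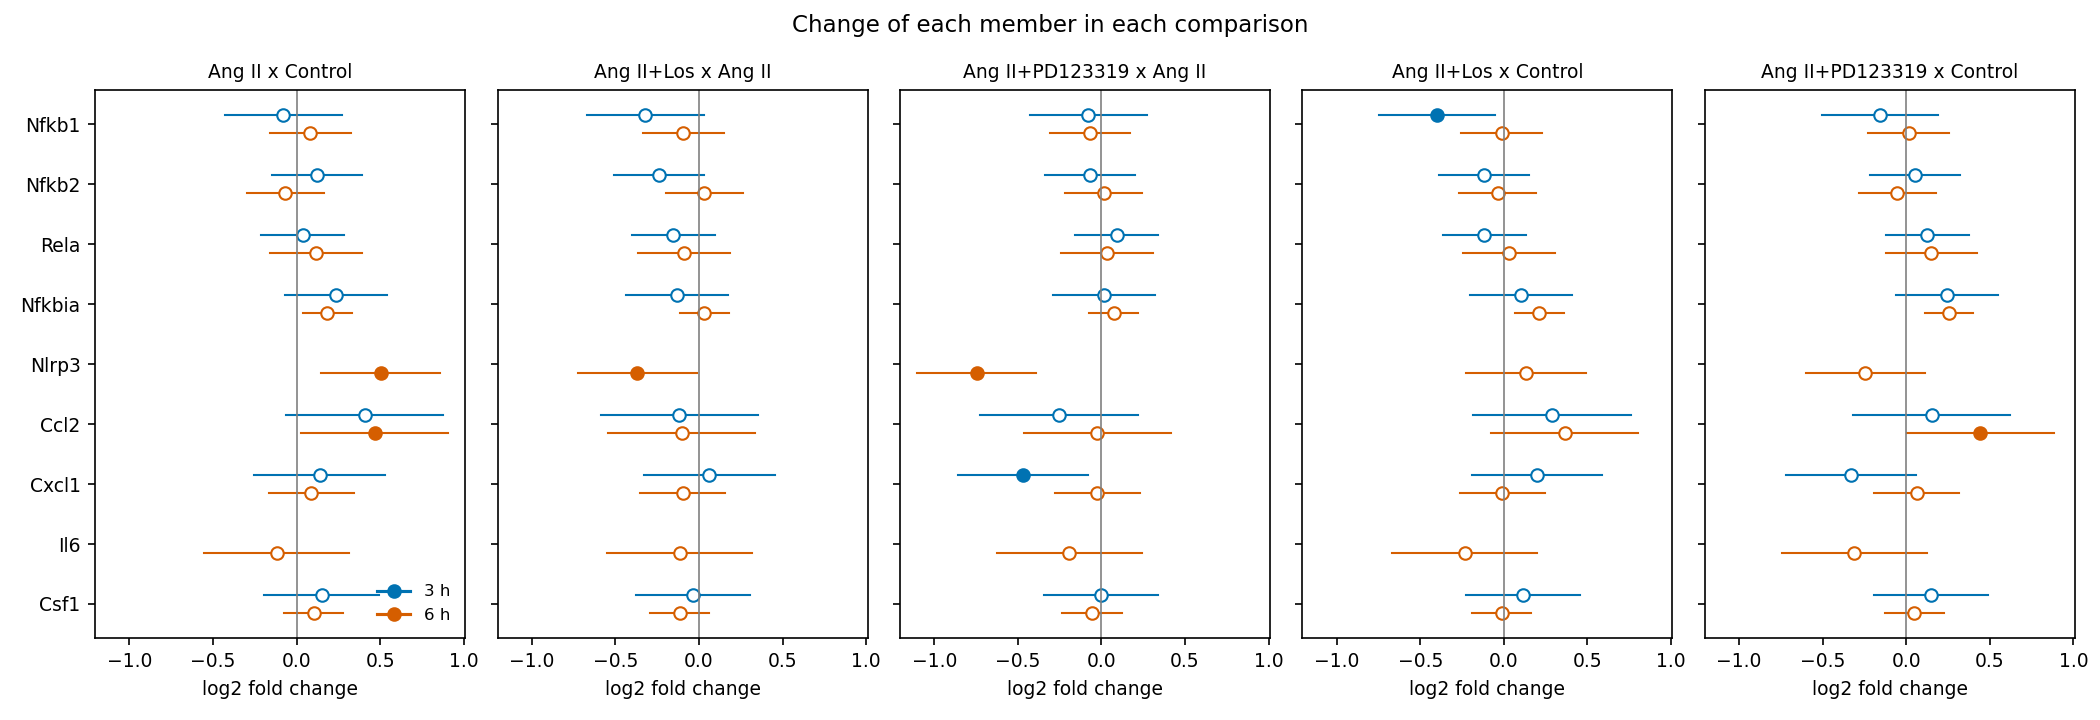
Log2 fold change of each tested gene (horizontal axis, log2 scale) in the 5 comparisons at 3 h (blue) and 6 h (orange), with bars for the 95% confidence interval from limma and filled points for genes past the p and fold limits. Most intervals include 0, and the filled points are Cxcl1 and Nfkb1 at 3 h and Nlrp3 and Ccl2 at 6 h.

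Of the 3 subunit genes, Nfkb1 alone passed the limits, in 1 comparison. Nfkb1, which encodes p105 and its processed form p50, was read by a probe for ENSRNOT00000036838 at bases 233091704 to 233091763 of chromosome 2 (rn4, minus strand). At 3 h its levels were 8.90, 9.24, 8.50 and 8.96 in Control and 8.67, 8.34, 8.50 and 8.49 in Ang II+Los. The Ang II+Los arrays lay close to or below the lowest Control array except for replicate 1, and the groups overlapped. The fold was 0.76 (log2 fold change -0.40, SE 0.16, 95% interval -0.75 to -0.05, Benjamini-Hochberg adjusted p = 0.203), with differences of -0.24, -0.89, 0.01 and -0.47 on the slides of replicates 1 to 4. Without replicate 2 the log2 fold change was -0.23, and without replicate 4 it was -0.37, neither past the limits. With Ang II alone, Nfkb1 stood at 8.60, 9.38, 8.68 and 8.62 at 3 h, and replicate 2 lay far above the others. Without replicate 1, Los x Ang II at 3 h was -0.45 and past the limits. At 6 h, no Nfkb1 mean difference exceeded 0.10 in size, and the 16 arrays ranged from 8.77 to 9.43.

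Nfkb2 encodes p100 and p52, the subunit of the noncanonical pathway, and its probe for NM_001008349 spans bases 251526647 to 251526839 of chromosome 1 (rn4, plus strand). Its levels ranged from 8.05 to 8.78 at 3 h and from 8.32 to 9.27 at 6 h. The widest difference was Los x Ang II at 3 h, at -0.24 (SE 0.12, 95% interval -0.51 to 0.03, adjusted p = 0.427), with Ang II+Los below Ang II on 4 of 4 slides. Nfkb2 did not pass in any comparison. Rela encodes p65, the transactivating subunit, and had a bright probe at bases 208272360 to 208272419 and a dim one at 208263526 to 208263582 of chromosome 1 (rn4, plus strand), both for NM_199267. At 3 h only the bright probe was kept, and no mean difference exceeded 0.16 in size. At 6 h the mean of both probes differed by at most 0.15 between group means, and none passed, although PD x Control was 0.32 and past the limits without replicate 3. The bright probe alone read 9.48, 9.62, 9.86 and 9.56 in Control and 9.76, 9.91, 9.79 and 9.82 in Ang II at 6 h, higher in Ang II on 3 of 4 slides. That difference was 0.19 (SE 0.08, adjusted p = 0.202), past the p limit but below the fold limit, whereas the dim probe differed by 0.05 (SE 0.19).

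Nfkbia encodes IkB-alpha, the inhibitor that NF-kB itself induces. Its probe for NM_001105720 lies at bases 75730438 to 75730497 of chromosome 6 (rn4, minus strand). At 6 h the levels were 9.48, 9.36, 9.65 and 9.45 in Control and 9.67, 9.71, 9.71 and 9.58 in Ang II. They were 9.65, 9.66, 9.91 and 9.56 in Ang II+Los and 9.73, 9.79, 9.75 and 9.70 in Ang II+PD123319. All 4 Ang II+PD123319 arrays lay above the highest Control array, whereas Ang II and Ang II+Los each overlapped Control through its replicate 3. Each of the 3 groups that received Ang II was above Control on 4 of 4 slides. Ang II x Control had a fold of 1.13 (log2 fold change 0.18, SE 0.07, 95% interval 0.04 to 0.33, adjusted p = 0.161). The fold was 1.16 in Los x Control (log2 fold change 0.21, SE 0.07, 95% interval 0.07 to 0.36, adjusted p = 0.103) and 1.19 in PD x Control (log2 fold change 0.26, SE 0.07, 95% interval 0.11 to 0.40, adjusted p = 0.0700). All 3 folds stayed under the limit of 1.2, so Nfkbia was not counted, and the 3 comparisons rest on the same Control arrays. PD x Control did pass both limits under quantile normalization (log2 fold change 0.28), in the deposited log2 values (0.26) and without replicate 3 (0.31, adjusted p = 0.0568 in limma). Against Ang II, the antagonist groups differed by 0.03 (95% interval -0.12 to 0.18) with losartan and by 0.07 (95% interval -0.07 to 0.22) with PD123319.

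At 3 h the Nfkbia levels spread more widely, at 9.70, 9.09, 8.59 and 9.53 in Control and 9.59, 9.46, 8.73 and 10.07 in Ang II. Replicate 3 was the lowest array in each of the 4 groups, and the groups overlapped over most of their range. The difference Ang II x Control was 0.23 (SE 0.14, 95% interval -0.07 to 0.54, adjusted p = 0.475), with Ang II higher on 3 of 4 slides. Without replicate 1 it was 0.35, Los x Control was 0.30 and PD x Control was 0.39, all past the limits.

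**Figure D2:**
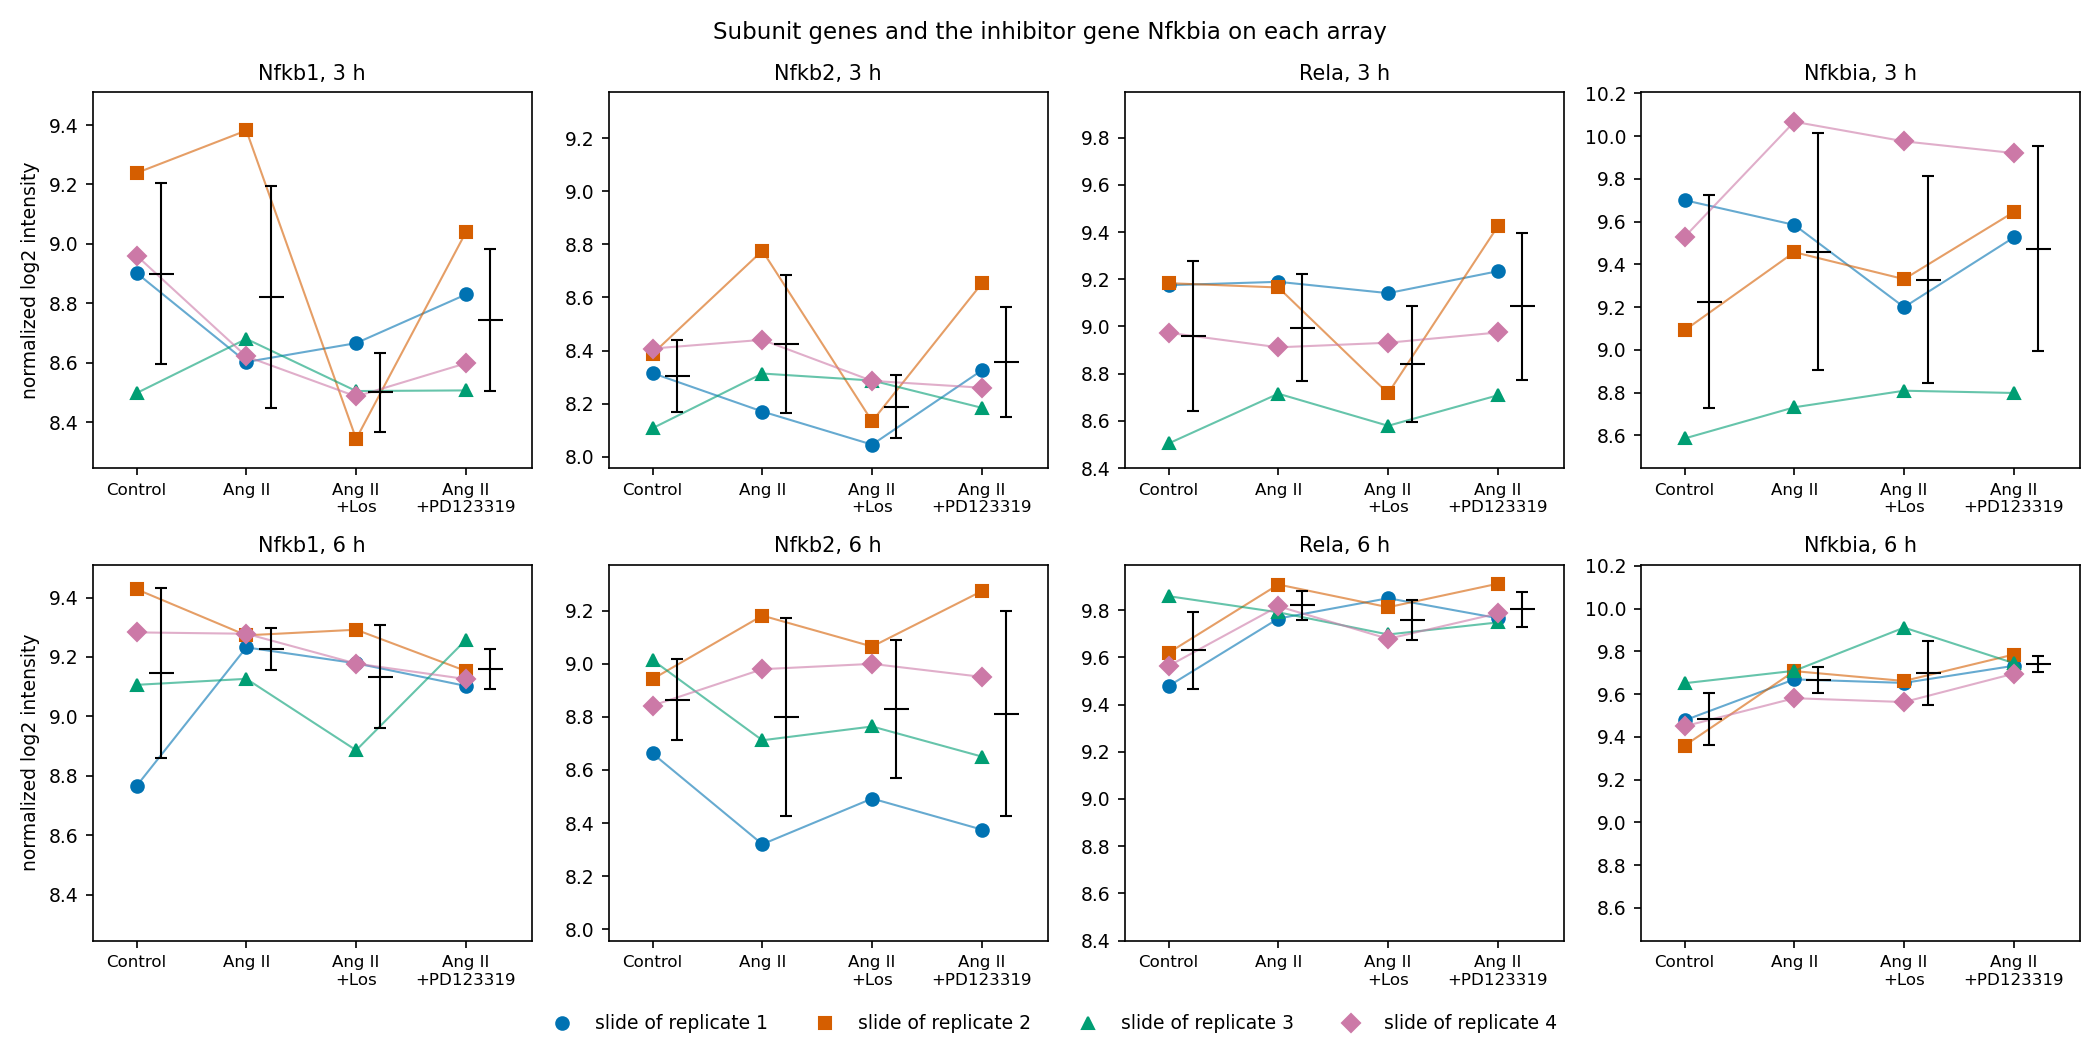
Normalised log2 intensity (vertical axis) of Nfkb1, Nfkb2, Rela (bright probe) and Nfkbia on every array, by treatment, at 3 h and 6 h. Lines join the 4 arrays of a slide and black points with bars give the mean ± SD of 4 replicates. At 6 h the Nfkbia lines run upward from Control, and at 3 h the slide of replicate 3 lies below the others in all 4 groups.

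The Nlrp3 signal at 6 h lay near background, and its 3 comparisons past the limits all involve Ang II, the only group through which it was tested. They are given as values, since the filter favoured a high level in that group. Its probe for ENSRNOT00000004280 is printed 10 times per array and spans bases 45873953 to 45874157 of chromosome 10 (rn4, plus strand). At 6 h the levels were 2.33, 3.31, 3.49 and 3.55 in Control and 3.26, 3.59, 3.81 and 4.03 in Ang II. They were 3.28, 3.24, 3.16 and 3.53 in Ang II+Los and 2.62, 2.84, 3.24 and 3.01 in Ang II+PD123319. Every Ang II array lay above every Ang II+PD123319 array, while Ang II overlapped Control and Ang II+Los. The group means were 3.67 ± 0.33 in Ang II, 3.30 ± 0.16 in Ang II+Los, 3.17 ± 0.57 in Control and 2.93 ± 0.26 in Ang II+PD123319 (SD, n = 4). On the linear scale these means equal 12.8, 9.87, 9.01 and 7.60 intensity units.

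Nlrp3 in Ang II stood above Control on 4 of 4 slides, by 0.93, 0.28, 0.32 and 0.48, with a log2 fold change of 0.50 (SE 0.16, 95% interval 0.15 to 0.86, adjusted p = 0.133). With PD123319, Nlrp3 stood below Ang II on 4 of 4 slides, by differences of -0.64, -0.75, -0.58 and -1.02, with a log2 fold change of -0.75 (SE 0.16, 95% interval -1.10 to -0.39, adjusted p = 0.414). Of the spots on the Ang II+PD123319 arrays, 17 of 38 were well above background, beside 17 of 34 in Control, 27 of 40 in Ang II+Los and 37 of 38 in Ang II, so the levels outside Ang II are uncertain in size. With losartan the differences from Ang II were 0.02, -0.35, -0.65 and -0.50, with a log2 fold change of -0.37 (SE 0.16, 95% interval -0.73 to -0.01, adjusted p = 1.00), and the call was lost without replicate 2, 3 or 4, at -0.38, -0.28 and -0.33. The neighbouring means of Ang II+Los and Control differed by 0.13 (95% interval -0.22 to 0.49), and those of Ang II+PD123319 and Control by -0.24 (95% interval -0.60 to 0.11), or by -0.42 and past the limits without replicate 1. All comparisons of Nlrp3 with Ang II use the same 4 arrays of that group.

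The size of the Nlrp3 differences depended on the background correction. With a normexp background and an offset of 50, which exceeds all the Nlrp3 group means in intensity units, Ang II x Control was 0.05 and PD x Ang II was -0.10 on the log2 scale, and neither passed. A stricter filter, which asked for this flag on each of the 16 arrays, left Nlrp3 untested. The 10 spots of the probe on an array had a median SD of 0.19 at 6 h, beside an SD between the arrays of a group of 0.16 to 0.57. Because RNA was measured in bulk, fewer cells with the transcript and less of it per cell cannot be told apart. At 3 h Nlrp3 was well above background only in Ang II+PD123319 replicate 1, with 11 to 28 of the spots of a group replaced by the error of their signal, and it was not tested.

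**Figure D3:**
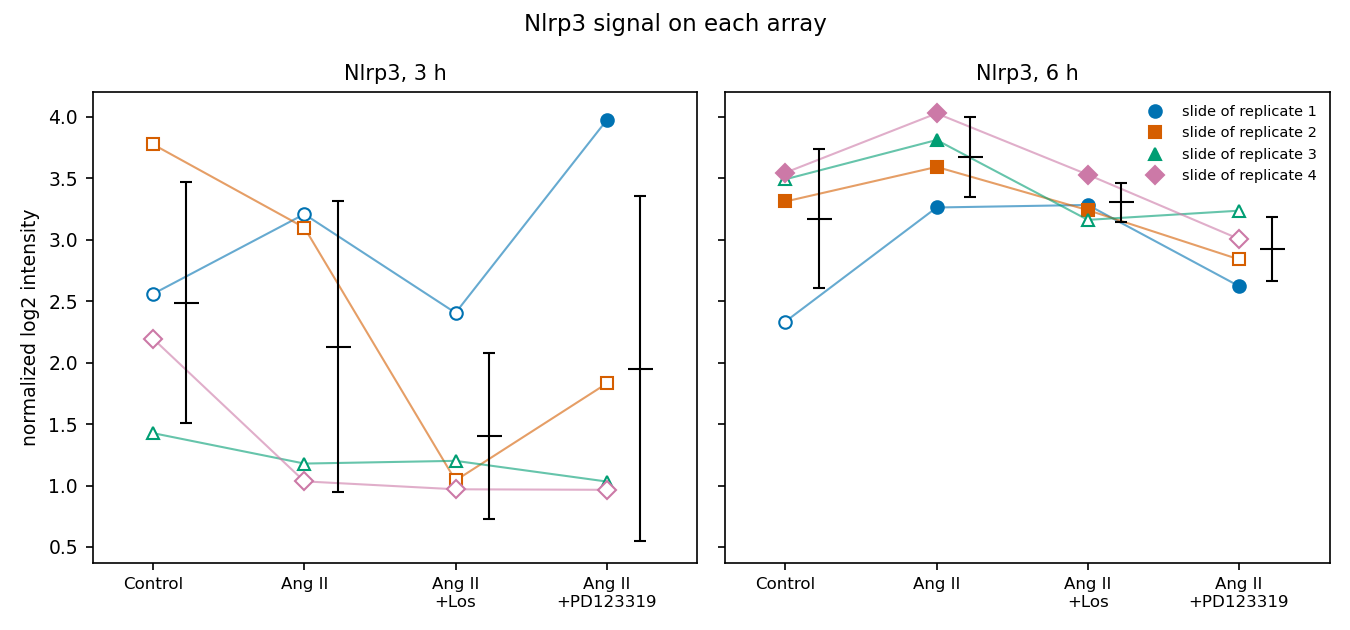
Normalised log2 intensity of the Nlrp3 probe (vertical axis) on every array by treatment, at 3 h and 6 h, with filled points for arrays on which it was well above background and open points for those on which it was not. Lines join the arrays of a slide, and black points with bars give the mean ± SD of 4 replicates. At 6 h all 4 Ang II points are filled and lie above the 4 Ang II+PD123319 points, of which 1 is filled.

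Ccl2 encodes MCP-1, the main chemoattractant of monocytes. Its probe for NM_031530 lies at bases 70257919 to 70257978 of chromosome 10 (rn4, plus strand) and was not saturated on any array. At 6 h Ccl2 stood at 13.59, 12.88, 13.20 and 13.13 in Control and at 13.41, 13.90, 13.33 and 14.03 in Ang II. It stood at 13.20, 13.92, 13.16 and 13.98 in Ang II+Los and at 13.42, 13.88, 13.23 and 14.04 in Ang II+PD123319. In each group that received Ang II, replicates 2 and 4 were high and replicates 1 and 3 were within the Control range. Ccl2 rose in Ang II x Control by a fold of 1.38 (log2 fold change 0.47, SE 0.20, 95% interval 0.03 to 0.91, adjusted p = 0.211) and in PD x Control by a fold of 1.36 (log2 fold change 0.44, SE 0.20, 95% interval 0.0018 to 0.88, adjusted p = 0.216). In Los x Control the difference was 0.36 (SE 0.20, 95% interval -0.08 to 0.80, adjusted p = 0.313), and 0.61 and past the limits without replicate 1. On the slides of replicates 1 to 4, Ang II x Control was -0.18, 1.02, 0.13 and 0.90. Without replicate 2 it was 0.28 and without replicate 4 it was 0.32, and PD x Control was 0.26 and 0.29 without them, none past the limits.

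At 3 h, where other slides were used, those of replicates 2 and 4 also stood apart for Ccl2. Levels were 13.74, 12.91, 13.22 and 13.11 in Control and 13.77, 13.85, 12.95 and 14.03 in Ang II, which gave differences of 0.03, 0.94, -0.27 and 0.93 on the slides of replicates 1 to 4. The mean difference was 0.41 (SE 0.22, 95% interval -0.06 to 0.88, adjusted p = 0.431) and did not pass, while without replicate 3 it was 0.63 and did, as did the value of 0.43 under the normexp background. Within an array the 10 Ccl2 spots had a median SD of 0.10 at 3 h and 0.07 at 6 h, well under the difference between slides. Against Ang II, Ccl2 differed by -0.12 (95% interval -0.59 to 0.35) with losartan and by -0.25 (95% interval -0.73 to 0.22) with PD123319 at 3 h. The corresponding 6 h values were -0.10 (95% interval -0.54 to 0.34) and -0.03 (95% interval -0.47 to 0.41).

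Cxcl1 encodes a neutrophil chemoattractant, and its promoter holds the kappa B match printed above. The probe for NM_030845 lies at bases 18690468 to 18690527 of chromosome 14 (rn4, minus strand). At 3 h its levels were 8.99, 9.65, 9.09 and 10.34 in Ang II and 8.86, 9.26, 8.40 and 9.68 in Ang II+PD123319. The groups overlapped, but Ang II+PD123319 was the lower array on 4 of 4 slides, by differences of -0.13, -0.39, -0.69 and -0.66. Cxcl1 fell in this comparison to a fold of 0.72 (log2 fold change -0.47, SE 0.18, 95% interval -0.86 to -0.08, adjusted p = 1), and the value was -0.40 without replicate 3 and -0.40 without replicate 4, neither past the limits. Control stood at 8.83, 9.64, 9.32 and 9.73 and Ang II+Los at 8.75, 10.21, 9.25 and 10.10, and neither comparison with Ang II passed. PD x Control was -0.33 (95% interval -0.72 to 0.06), and -0.45 and past the limits without replicate 1. At 6 h Cxcl1 spread from 8.63 to 10.36 over the 16 arrays, with replicates 2 and 4 above replicates 1 and 3 in all 4 groups, Control included. No mean difference exceeded 0.10 in size at 6 h, although single slides differed by up to 0.55 (Ang II x Control on the slide of replicate 2).

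**Figure D4:**
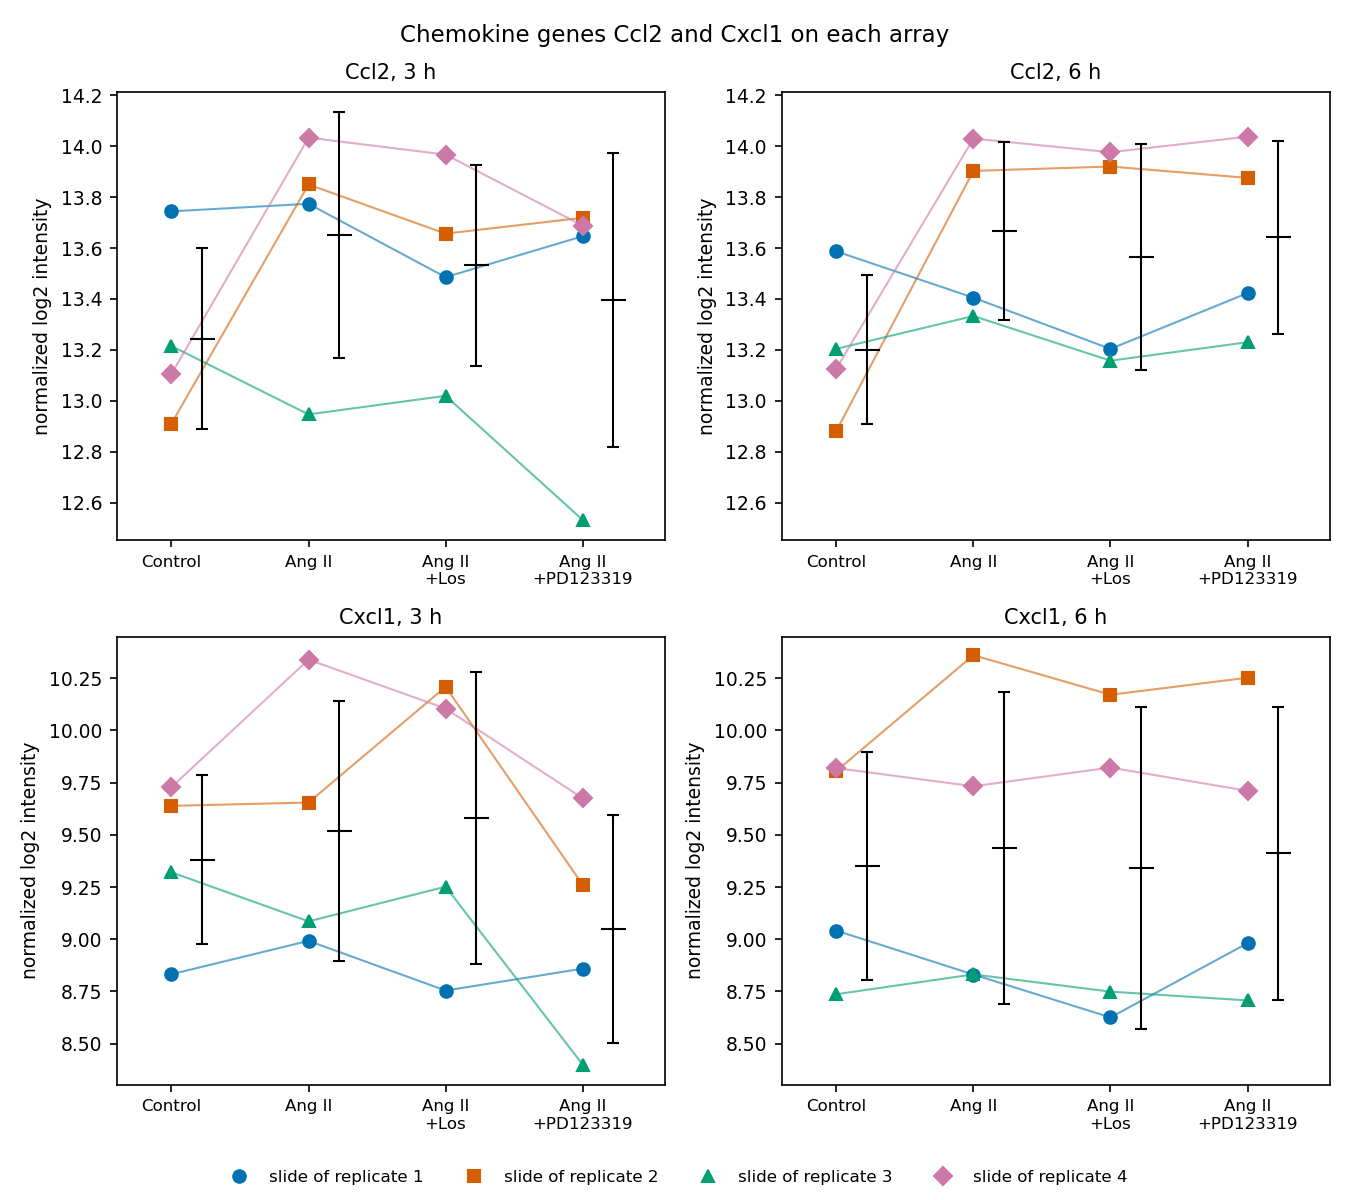
Normalised log2 intensity (vertical axis) of Ccl2 and Cxcl1 on every array by treatment, at 3 h and 6 h. Lines join the 4 arrays of a slide and black points with bars give the mean ± SD of 4 replicates. For Ccl2 the slides of replicates 2 and 4 run upward from Control to Ang II by 0.90 to 1.02 at 6 h, and the other 2 slides stay near level.

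Il6, a cytokine that signals through gp130, was read by a probe for NM_012589 that spans bases 457279 to 458563 of chromosome 4 (rn4, minus strand). At 6 h the levels were 3.39, 4.65, 3.39 and 4.93 in Control and 3.59, 4.16, 3.87 and 4.28 in Ang II. They were 3.16, 4.05, 4.02 and 4.19 in Ang II+Los and 3.13, 3.94, 3.94 and 4.11 in Ang II+PD123319. Control held both the highest levels and levels near the lowest, and all groups overlapped. The widest difference was PD x Control, at -0.31 (SE 0.20, 95% interval -0.75 to 0.12, adjusted p = 0.360), with slide differences of -0.26, -0.71, 0.55 and -0.83. Without replicate 3 it was -0.60 (adjusted p = 0.0606), and Los x Control was -0.52 (adjusted p = 0.0705), both past the limits. At 3 h Il6 lay between 2.21 and 4.34 and was not tested.

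Csf1, the growth factor of macrophages and microglia, was read by a probe for NM_023981 at bases 203292994 to 203293053 of chromosome 2 (rn4, minus strand). Its levels ranged from 9.80 to 11.10 at 3 h and from 10.86 to 11.65 at 6 h. Replicate 3 was the lowest array of every group at 3 h, and replicate 4 was at 6 h. No mean difference exceeded 0.15 in size at 3 h or 0.12 at 6 h, and Csf1 did not pass in any comparison. On the slide of replicate 2 at 3 h, however, Ang II, Ang II+Los and Ang II+PD123319 lay above Control by 0.73, 0.55 and 0.80. All 3 differences rest on the same Control array. Its 10 Csf1 spots had an SD of 0.54, the highest of the arrays at 3 h, beside a median of 0.10. At 6 h the Ang II x Control difference of Csf1 was 0.10 (95% interval -0.07 to 0.28).

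Other genes of the pathway were taken from lists of 128 genes in 8 groups, the 10 genes above included. Of these, 116 had a probe, 3 of them matched by accession, and 69 were tested at 3 h and 80 at 6 h. In Ang II x Control, 5 were higher and 3 lower at 3 h (11.6% of those tested, median log2 fold change 0.12) and 9 higher and 4 lower at 6 h (16.2%, median 0.02), beside 11% and 11.5% of all genes. On the log2 scale a fall had to be larger than a rise to pass the fold limits, which favours counts of higher genes. In Los x Ang II the counts were 5 higher and 1 lower at 3 h (8.7%) and 0 higher and 1 lower at 6 h (1.25%), beside 10.1% and 0.9% of all genes. In PD x Ang II they were 0 and 2 (2.9%) and 1 and 2 (3.75%), beside 2.64% and 3.79%. The 1 lower gene in Los x Ang II at 6 h was Nlrp3. At 6 h it was also among the 9 higher in Ang II x Control and the 2 lower in PD x Ang II. Because Nlrp3 was tested only through the Ang II group, its part in these counts is not read as a result. Against Control, 14 were higher and 7 lower with losartan at 3 h (30.4%, beside 20% of all genes) and 6 and 4 at 6 h (12.5%, beside 11.4%). With PD123319 the counts against Control were 1 higher and 5 lower at 3 h (8.7%, beside 6.1%) and 8 and 3 at 6 h (13.8%, beside 13.5%). Scaling each array to its 75th percentile turned the split of Ang II x Control at 3 h from 5 higher and 3 lower to 2 higher and 5 lower, and that of PD x Ang II at 6 h from 1 and 2 to 4 and 1. Quantile normalization turned that of PD x Control at 3 h from 1 and 5 to 3 and 5. The normexp background turned the split of Ang II x Control at 6 h from 9 and 4 to 3 and 5. It turned that of Los x Control at 6 h from 6 and 4 to 2 and 6. For PD x Control at 3 h it gave 3 and 1, while Ang II x Control at 3 h stayed near, at 4 and 3. Los x Control at 3 h kept 14 and 7 under 75th percentile scaling but fell to 5 and 0 without the slide as a block. Without replicate 2 it fell to 7 and 2. Over all genes, the counts of this comparison without replicate 2 were 496 higher and 356 lower, in place of 1352 and 1372.

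In the inflammasome group, 3 of 11 genes were higher and 2 lower in Ang II x Control at 6 h, where 11.5% of all genes passed. One of the 3 was Nlrp3, which was tested only through the Ang II group, and another was Nod1, which was higher on 2 slides and lower on the other 2. Casp8, an initiator caspase that also takes part in inflammasome signalling, rose by 0.51 (SE 0.09, adjusted p = 0.0575 in limma) with slide differences of 0.48, 0.45, 0.64 and 0.46. In Los x Control it rose by 0.45 (SE 0.09, adjusted p = 0.0386 in limma), and in PD x Control by 0.31 (SE 0.09), each higher on 4 of 4 slides. Casp4, the inflammatory caspase that responds to intracellular lipopolysaccharide, fell with Ang II against Control to a fold of 0.74 at 3 h (log2 fold change -0.43, SE 0.12) and of 0.65 at 6 h (log2 fold change -0.61, SE 0.20). Its 6 h slide differences were -0.14, -1.16, -0.04 and -1.12, again wide on the slides of replicates 2 and 4. Casp4 also fell in Los x Control, by 0.32 at 3 h and 0.62 at 6 h on the log2 scale, and in PD x Control, by 0.45 and 0.63. The mean of Nlrx1, a mitochondrial member of the NOD-like receptor family, fell in all 3 comparisons with Control at both times. It fell by 0.46, 0.58 and 0.38 (SE 0.16) in Ang II, Ang II+Los and Ang II+PD123319 at 3 h and by 0.43, 0.40 and 0.39 (SE 0.14) at 6 h. Its 6 h slide differences were 0.02, -0.82, -0.17 and -0.76 in Ang II x Control and 0.15, -0.86, -0.17 and -0.72 in Los x Control. In PD x Control they were -0.05, -0.64, -0.15 and -0.74, so the slides of replicates 2 and 4 were again wide. The 3 comparisons of a time share the Control arrays. The median of the inflammasome group in Ang II x Control was 0.06 at 3 h, with 0 of 9 higher and 2 lower (beside 11% of all genes), and 0.01 at 6 h.

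Among the 8 chemokine genes tested at 6 h, 2 were higher and 1 lower in Ang II x Control, where 11.5% of all genes passed. Ccl7, a monocyte chemoattractant related to Ccl2, rose by 0.55 (SE 0.19, adjusted p = 0.140 in limma), with slide differences of 0.09 on the slides of replicates 1 and 3 and of 0.83 or more on those of replicates 2 and 4, the slides that were wide for Ccl2. It also rose at 6 h in Los x Control by 0.45 and in PD x Control by 0.51 (SE 0.19), and at 3 h in Ang II x Control by 0.42 and in Los x Control by 0.46 (SE 0.17). Among kinases and adaptors, Tbk1, an IKK-related kinase, rose at 6 h in Ang II x Control by 0.48, in Los x Control by 0.57 (adjusted p = 0.0657 in limma) and in PD x Control by 0.43 (SE 0.14), on 4 of 4 slides each. Malt1, a paracaspase upstream of the IkB kinase, rose at 6 h in Ang II x Control by 0.38 and in Los x Control by 0.30 (SE 0.12). Tbk1 and Malt1 also rose in Ang II x Control at 3 h, by 0.54 (SE 0.21) and 0.52 (SE 0.23). Their probes were not well above background on every array there. The filter may thus have favoured the group through which they were tested, which is not given here. The differences of Tbk1 on the slides of replicates 1 to 4 were -0.16, 1.19, 0.68 and 0.43. Those of Malt1 were 0.10, 1.39, 0.07 and 0.51. Ikbke, the other IKK-related kinase, was higher in Ang II+PD123319 than in Ang II at 6 h by 0.50 (SE 0.13) on 4 of 4 slides, and than in Control by 0.34 (SE 0.13) on 3 of 4.

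At 3 h the adaptor gene Myd88, which links Toll-like and interleukin-1 receptors to the pathway, was higher in Ang II+Los than in Ang II by 0.43 (SE 0.17) and than in Control by 0.65 (SE 0.17). Peli1, a ubiquitin ligase of the same pathway, and Tnfrsf1a, the main receptor of TNF, were higher in Ang II+Los than in Ang II by 0.63 (SE 0.25) and 0.42 (SE 0.16). Against Control they were higher by 0.63 and 0.47, but each was lower on 1 slide. The slide differences in Los x Control were 1.07, 1.40, 0.12 and -0.09 for Peli1 and 0.38, 0.97, -0.11 and 0.65 for Tnfrsf1a. Tnfrsf1b, the other receptor of TNF, rose in Los x Control by 0.67 (SE 0.20), and Irf1, a target gene and transcription factor of the interferon response, by 0.64 (SE 0.19). On the slides of replicates 1 to 4 the differences were 0.53, 1.52, 0.10 and 0.52 for Tnfrsf1b and 0.54, 1.55, 0.20 and 0.28 for Irf1. Those of Myd88 in Los x Control were 0.59, 1.38, 0.21 and 0.45, so the slide of replicate 2 was the widest for each of these genes. Nfkbib, which encodes IkB-beta, fell at 3 h in Ang II x Control by 0.48 and in Los x Control by 0.55 (SE 0.19). Bcl3, an atypical nuclear IkB, rose at 3 h in Ang II x Control by 0.35, in Los x Control by 0.53 and in PD x Control by 0.50 (SE 0.15), on 4 of 4 slides each. The adjusted limma p of these 3 h differences was at least 0.178. In the other groups of the list, the NF-kB inhibitors had, with Ang II against Control, 1 higher and 1 lower of 9 at 3 h and 1 higher of 10 at 6 h, beside 11% and 11.5% of all genes, and the receptors had 0 of 7 and 0 of 9. Cytokines and growth factors had 0 of 5 at 3 h and 1 lower of 7 at 6 h, and the target genes outside the chemokines and cytokines had 0 of 9 and 1 higher of 10.

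Whether a difference itself changed between 3 h and 6 h was tested for the 7 genes kept at both times. No gene passed at an unadjusted p under 0.05 in Ang II x Control, Los x Ang II or PD x Ang II, where 7.09%, 5.21% and 1.81% of all 13617 genes did, and none had an adjusted p under 0.05. The smallest p belonged to Cxcl1 in PD x Ang II, which differed by 0.44 between times (SE 0.22, adjusted p = 1.00). The passing of Cxcl1 at 3 h and of Ccl2 at 6 h alone was therefore not shown to differ between the times.

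With the mean of each slide taken off, the genes were set against each other over the 32 arrays, which share slides and normalization and which are given here as a description. Ccl2 and Csf1 varied most alike (r = 0.69), followed by Nfkbia and Ccl2 (r = 0.64), and Rela and Cxcl1 were the most opposed (r = -0.50). Of 13616 other genes, the one most like Ccl2 was Rapgef5 (r = 0.92), that most like Nfkbia was Fam83d (r = 0.85), and that most like Csf1 was Csk (r = 0.87). Cxcl1 was most like Nrarp (r = 0.78), Nfkb2 most like Gfod2 (r = 0.78), Nfkb1 most like EV768969 (r = 0.89), and Rela most like the unnamed probe A_44_P867949 (r = 0.93).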

How the data were processed

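Total RNA of C6 cells was labelled with Cy3 and hybridised to Agilent single-dye rat arrays. Per the file headers, the deposited scanner files hold a processed intensity per spot, background-subtracted and detrended by Agilent Feature Extraction 9.5.3.1 and not scaled between arrays, together with raw mean and background intensities and flags of 0 or 1. The deposited series table holds log2 values of the same processed intensity. Its values served as an alternative. Probes are annotated on rn4.

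Control spots and outlier-flagged spots were dropped, and the remaining spots of a probe were averaged. Dim spots, whose signal was not significant or lay below its error, were set to the error of their signal at both times. On the 6 h arrays these were 7.88% to 21.7% of the spots. At 3 h such spots carry no surrogate value from the scanner software. Probes with more than 2 gaps at a time were dropped. Log2 values were normalised by cyclic loess (span 0.7, 3 iterations) within each time, and probes well above background on all 4 arrays of a group were kept (a probe printed 10 times if at least 50% of its spots were) and averaged per gene. Groups were compared with limma 3.58.1 in R 4.3.3, with the 16 arrays of a time in 1 fit, the slide as a block and Benjamini-Hochberg adjustment over all genes. The limits, p under 0.05 and a fold above 1.2 or below 0.8, were applied without adjustment, since the study's methods name t-tests. Times were compared in a fit of all 32 arrays. The scripts were tested on simulated data. Figures were drawn with Python 3.11.15 and matplotlib 3.10.9.

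Groups and replicate numbers come from the sample titles. The number marks the slide: deviations from the group means correlated between same-numbered arrays with a median of 0.67 at 3 h and 0.69 at 6 h (lowest of 24 pairs 0.14 and 0.55), against -0.18 and -0.22 for other numbers. At 3 h, replicates 1 and 2 shared a scan date, as did 3 and 4, and at 6 h replicates 1 to 3 did. Differences within slides are therefore also within scan dates. Nothing in the labels says that replicates came from separate cultures, so p-values measure only the spread between these samples, which may be technical. The number of arrays limits the precision.

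The genes described and the pathway lists (subunits, inhibitors, kinases and adaptors, receptors, cytokines and growth factors, chemokines, inflammasome, target genes) were chosen with earlier results of these data known. Genes of the lists were named, per comparison, if among the up to 3 largest changes past the limits with the same sign on 4 slides and well above background on 16 arrays. The other comparisons in which a named gene passed are also given, and Nod1 was named after its values were seen. Likeness was ranked over genes tested at both times. Alternatives were no slide block, paired and unpaired t-tests per gene, 75th percentile scaling, quantile normalization, normexp background, a stricter filter and none, the brightest probe, a fit of only the 8 arrays compared, the deposited log2 values and each replicate left out. No per-sample column was without a sample (0 columns).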

Additional observations from a re-analysis of the deposited data

Results flagged for a closer look

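In 5 of the 64 sets of 4 replicates examined for the genes (1 probe or gene mean, 1 group and 1 time each), a single array lay far from the other 3, judged by its gap to the nearest array as a share of the whole range. Chance flags about 1 in 20 such sets. The sets were Nfkb1 in Ang II at 3 h, where the highest array, replicate 2, took up 0.9 of the range. Ccl2 in Ang II+PD123319 at 3 h had its lowest array, replicate 3, at 0.939 of the range. Csf1 in the same group and time had its lowest array, also replicate 3, at 0.91. For Il6 in Ang II+Los at 6 h the lowest array, replicate 1, gave 0.831. For Rela in Ang II+Los at 6 h the highest array, replicate 4, gave 0.943.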

How the results depend on the processing

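None of the differences of the genes changed direction as a called value, and no adjusted p fell under 0.05 under any of the alternatives. Of the 7 calls, Cxcl1 held in 11 of 15 alternatives, Ccl2 in Ang II x Control in 8 of 15, Nfkb1 in 7 of 14 and Ccl2 in PD x Control in 5 of 15. The calls of Nlrp3 at 6 h, which was tested only through the Ang II group and not at all under the strict filter, held in 13 of the other 14 alternatives in PD x Ang II, 11 in Ang II x Control and 3 in Los x Ang II. Most of these alternatives keep the filter that favoured a high level in Ang II, so holding in them is no separate support. Over these the adjusted p ranged from 0.136 to 1 for Nlrp3 in PD x Ang II and from 0.122 to 1.00 in Ang II x Control.

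Without the replicate block that pairs the arrays of a slide, 0 genes passed in any comparison with a count above 0 except PD x Ang II at 6 h, which kept 1, and the genes past the limits over all genes numbered 35 to 753 per comparison in place of 148 to 2724. The unpaired t-test gave the same counts of 0. The paired t-test per gene gave 0 in Los x Control at 3 h, Los x Ang II and PD x Control at 6 h, and 1 in place of 2 in Ang II x Control at 6 h. At 6 h, 75th percentile scaling gave 1 in Ang II x Control and 0 in Los x Ang II and PD x Control, and quantile normalization gave 0 in Los x Ang II and, in PD x Control, 1 as before but Nfkbia in place of Ccl2. The normexp background gave 1 in Ang II x Control at both times, 0 in Los x Control at 3 h and in Los x Ang II, PD x Ang II and PD x Control at 6 h, and 1 gene whose change differed between times in place of 0. The strict filter, which drops Nlrp3 and Il6, gave 1 in Ang II x Control and 0 in both comparisons with Ang II at 6 h. No filter gave 1, 2 and 1 at 3 h in Los x Ang II, Los x Control and PD x Control, and 0 at 6 h in Los x Ang II and PD x Control. The genes added at 3 h were Rela, Nlrp3 and Il6, each through a dim probe. The 8 arrays alone gave 0 in Los x Control at 3 h, and 1 and 0 in Ang II x Control and PD x Control at 6 h. The deposited values gave 1, 0 and 1 at 3 h in Ang II x Control, Los x Control and PD x Control, and 0 and 2 at 6 h in Los x Ang II and PD x Control. With each replicate left out, the counts at 3 h ranged from 0 to 1 in Ang II x Control, Los x Ang II and PD x Ang II and from 0 to 2 in the other 2, and at 6 h from 1 to 2 in Ang II x Control, 0 to 1 in Los x Ang II, 1 to 1 in PD x Ang II, 0 to 1 in Los x Control and 0 to 4 in PD x Control. The time difference ranged from 0 to 1. Apart from the filters, the cause was not tested. The background method and its offset were changed together, so their parts in the normexp counts were not separated. Signal over background limits Nlrp3 and Il6, and the dim Rela probe.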

Other observations

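Between times, the Control arrays could be set against the other 3 arrays of their slides. Over 13617 genes tested at both times, the difference of Control from the mean of the other 3 arrays of its slide correlated between 3 h and 6 h at r = 0.14 to 0.29 for slides of the same replicate number and at -0.26 to 0.19 for slides of different numbers. These correlations are across genes, which are not independent replicates. For Ccl2 the slides of replicates 2 and 4, which were different slides at 3 h and at 6 h, stood apart at both times. On them Ang II lay above Control by 0.94 and 0.93 at 3 h and by 1.02 and 0.90 at 6 h.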
